A study of Homo sapiens with 12 samples.

Results

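The genes examined here encode telomerase and shelterin, the complexes that lengthen and cap chromosome ends. Members were 10 genes chosen by symbol and found in the deposited tables by their Ensembl identifiers, with the version dropped, out of 58288 genes listed for each cell line. They comprised the telomerase reverse transcriptase TERT, the telomerase RNA TERC, the telomerase trafficking factor WRAP53, the RNA-trimming nuclease PARN, and the 6 shelterin genes TERF1, TERF2, TERF2IP, TINF2, ACD and POT1. All 10 were present in both tables and all 10 passed the filter on low counts.

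Telomerase adds telomeric repeats by copying a short template within TERC, and most leukemia cells depend on it to keep dividing. TERC ends in an H/ACA domain, the same fold as the guide RNAs of pseudouridylation, and is stable only when bound by dyskerin and its partner proteins, which SHQ1 helps to assemble. Shelterin coats the repeats, with TERF1 and TERF2 on the double strand, POT1 on the single-stranded overhang, and TINF2 and ACD bridging them, and ACD also recruits telomerase.

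The study examined RNA of HPB-ALL and KOPTK1, which are established cell lines of T-cell acute lymphoblastic leukemia (T-ALL), after depletion of SHQ1. Cells received lentiviral pLKO.1 shRNA directed at SHQ1, or at GFP as the control, and puromycin at 2 μg/mL for 48 h. The labels describe 4 groups of 3 samples, namely HPB-ALL with shGFP, HPB-ALL with shSHQ1, KOPTK1 with shGFP and KOPTK1 with shSHQ1. The published methods state that ribosomal RNA was depleted from total RNA before sequencing. They name no selection for a poly(A) tail, which TERC lacks, and do not describe the steps of the library kit. Each line stands for 1 established culture, and differences between them describe only the libraries labelled with these lines.

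The tables held 12 libraries headed only by the numbers 1 to 12, and these headers match no shRNA label. The line of each table was given by the labels, 6 libraries per line, but which libraries carried SHQ1 shRNA was not. Accordingly, no comparison of SHQ1 shRNA with control shRNA was made, and libraries of both shRNAs were pooled within a line. Total counts ranged from 22884785 to 42842791 per library, and all 6 HPB-ALL libraries were deeper than every KOPTK1 library.

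Lineage markers were examined first. All 10 T lineage markers reached a median of at least 1 RPKM (reads per kilobase of gene per 1000000 counts of the library) in both lines. Their summed level was 935.1 RPKM at the lowest, 947.2 at the median and 978.3 at the highest in HPB-ALL, and 937.5, 959.9 and 981.5 in KOPTK1, with CD3D the most abundant gene in each line. The 4 myeloid markers summed to medians of 0.726 RPKM in HPB-ALL and 1.1 in KOPTK1. The 4 B lineage markers summed to medians of 43.6 RPKM in HPB-ALL and 17.0 in KOPTK1, mostly from CD79A, at medians of 43.1 and 15.6 RPKM. The 4 fibroblast and packaging cell markers summed to 9.2 and 5.11 RPKM, with THY1 the most abundant. In KOPTK1 both sums fall in a gap between libraries. CD79A was at 24.0 to 24.6 RPKM in those headed 1, 2 and 3 and 5.87 to 7.17 in those headed 4, 5 and 6, and THY1 at 5.31 to 5.45 and 2.38 to 2.6, so that no KOPTK1 library lay near these medians. The library headed 3 also stood apart from the others, with 73 counts of COL1A2, 53 of COL3A1 and 41 of MPO, a myeloid gene, whereas no other library had more than 5, 5 and 8. No marker of these lists was at 0 in every library of a line, and the part of the B lineage and fibroblast markers in the results was not tested.

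TLX3, the homeobox oncogene known to be activated in HPB-ALL, was close to absent from the libraries labelled HPB-ALL, with a median of 0 and a highest count of 2. It reached a count of 16 in 1 KOPTK1 library, headed 3. LMO2, the oncogene associated with KOPTK1, had counts of 8 to 26 in HPB-ALL and 85 to 138 in KOPTK1. All 6 KOPTK1 libraries lay above all 6 of HPB-ALL. Its level was nevertheless low in KOPTK1, at 0.974 to 2.49 RPKM with a median of 1.27, against a median of 0.133 RPKM in HPB-ALL. The marker defining HPB-ALL was therefore missing and that of KOPTK1 was low. The identity of the lines was not tested, and the line names below are those of the labels.

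The KOPTK1 libraries also fell apart from one another. Log2 CPM correlated across genes at 0.989 to 0.993 among the libraries headed 1, 2 and 3 or among those headed 4, 5 and 6, but at 0.972 to 0.979 between these sets. Correlation with the HPB-ALL libraries was 0.954 to 0.968 for the first set and 0.915 to 0.928 for the second, whereas HPB-ALL libraries correlated with each other at 0.991 to 0.994. Genes are not independent replicates, and these values describe the libraries only.

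Genes with a difference of at least 8-fold between the HPB-ALL libraries and the KOPTK1 libraries headed 4, 5 and 6, at 5 or more CPM in the higher, were then located in the remaining KOPTK1 libraries. On a scale from 0 for the mean of the libraries headed 4, 5 and 6 to 1 for the mean of HPB-ALL, the 137 genes higher in HPB-ALL had a median place of 0.447 in the library headed 1, 0.452 in that headed 2 and 0.489 in that headed 3. The 277 genes lower in HPB-ALL had median places of 0.434, 0.438 and 0.41. Thus, in either direction and in each of these 3 libraries, genes that separated the lines lay between them, with at least 95.7% of the genes placed between 0.25 and 0.75. The labels do not say why these libraries lie there, and whether they share an shRNA is not given. A mixture of RNA or cells of both lines, or an exchange of samples, was not tested, so that the level called KOPTK1 below may not stand for that line alone. The difference of each gene named below is therefore given also without the libraries headed 1, 2 and 3 and, in turn, without those headed 4, 5 and 6, both chosen after seeing the data.

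SHQ1, the target of the shRNA, was measured next. In HPB-ALL its lowest, median and highest levels were 46.4, 59.7 and 71.8 RPKM. Libraries headed 7, 8 and 9 held the high values and those headed 10, 11 and 12 the low ones, with a wide gap between. In KOPTK1 the levels were 39.3, 43.0 and 46.4 RPKM, a narrow range in which the libraries headed 4, 5 and 6 were lowest. These values were not used to assign libraries to an shRNA.

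Levels of the members differed widely per length. In HPB-ALL, with the length given in the tables, TERF2IP had the highest median, 51.5 RPKM, and TERT the lowest, 3.57 RPKM. With the RefSeq length of TERC, an alternative chosen after seeing the data, TERC was highest there at 53.0 RPKM, so that the first place is not settled. In KOPTK1, TERC was highest at 47.3 RPKM and TERT again lowest at 1.63 RPKM. The highest median was thus 14.4 times the lowest in HPB-ALL and 29.0 times in KOPTK1. The KOPTK1 values rest on which libraries are present, since the TERT median falls in a gap between the libraries headed 4, 5 and 6 and those headed 1, 2 and 3. Leaving out any 1 of the libraries headed 1, 2 or 3 moved the TERT median to 1.07 RPKM and the ratio to 45.6, and leaving out any 1 of those headed 4, 5 or 6 moved the ratio to 20.9. Of the genes with a median above 0, the TERT level exceeded 60.7% in HPB-ALL and 47.5% in KOPTK1, whereas TERF2IP exceeded 97.0% and 96.2%.

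In descending order, HPB-ALL levels ran TERF2IP, TERC, PARN, TERF2, ACD, TINF2, TERF1, WRAP53, POT1 and TERT. The ranges over libraries overlapped between TERF2IP and TERC, between TERF2 and ACD, and between TINF2 and TERF1, and every other pair of neighbours stood apart. In KOPTK1 the order was TERC, TERF2IP, PARN, TINF2, TERF1, TERF2, ACD, POT1, WRAP53 and TERT, and neighbours overlapped between TERC and TERF2IP and along the run from TINF2 to ACD. POT1 lay below WRAP53 in HPB-ALL and above it in KOPTK1, with their ranges apart in both lines.

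Across all genes, edgeR's quasi-likelihood test between the lines called 17761 of 27834 tested genes at an adjusted p-value under 0.05, or 63.8%. Among the members, 8 of 10 were called, 5 higher and 3 lower in HPB-ALL, against 30.6% and 33.2% of tested genes in these directions. CPM values, scaled by the normalization factors of the fit, did not overlap between the 6 and 6 libraries for 8 of 10 members and for 43.7% of tested genes. The median absolute log2 difference was 0.30 over the members and 0.35 over all tested genes. With most of the transcriptome called, the count of members says nothing particular about them, and the individual genes carry the description below. In bulk RNA, fewer cells expressing a gene and less RNA per cell cannot be told apart. The published legend of the figure with the RNA-Seq speaks of biological replicates for data shown as means with SEM, and does not name the RNA-Seq libraries there. Neither it nor the other sources used here state that libraries of a group came from separate cultures. Without that, p-values measure only the spread between these libraries, of both shRNAs.

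Without the KOPTK1 libraries headed 1, 2 and 3, 68% of tested genes and all 10 members were called, 6 higher and 4 lower in HPB-ALL. Without those headed 4, 5 and 6, 50.2% of tested genes and 8 members were called. When a minimum change of 1.5-fold was required, calls fell to 15.3% of tested genes and to 1 member, POT1.

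**Figure D1:**
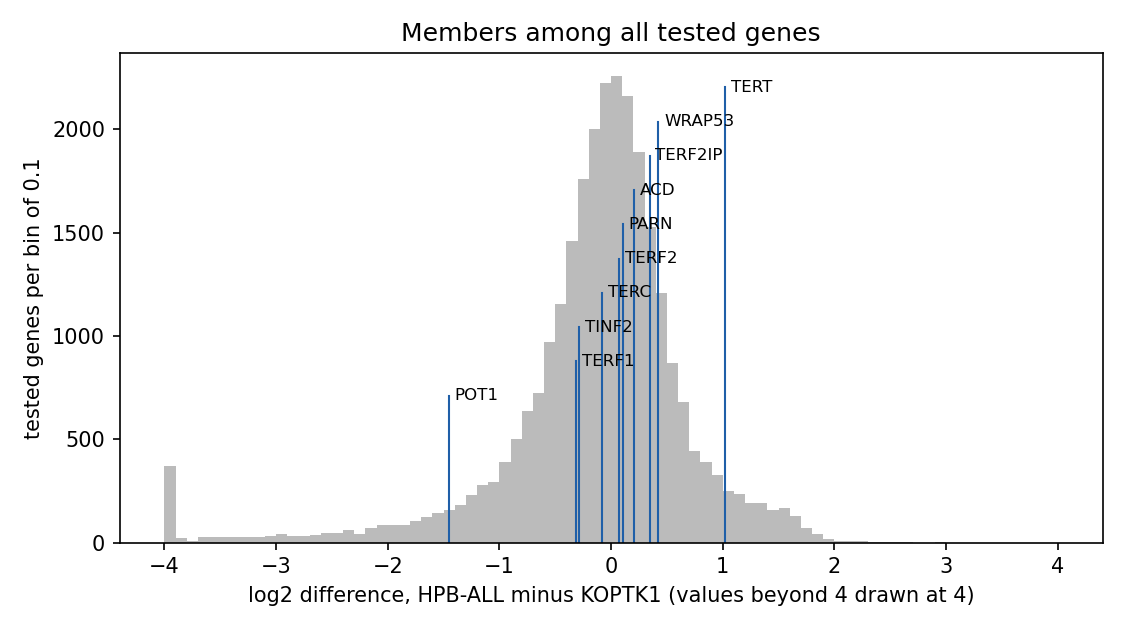
Distribution of the log2 difference between HPB-ALL and KOPTK1 over 27834 tested genes in bins of 0.1, with each member marked by a line. TERT and POT1 stand toward opposite tails, and the other 8 members lie near the centre.

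TERT encodes the catalytic subunit and limits telomerase activity in many cells. Its lowest, median and highest levels were 3.17, 3.57 and 3.94 RPKM in HPB-ALL and 0.92, 1.63 and 2.65 RPKM in KOPTK1. Every HPB-ALL library was above every KOPTK1 library, and within KOPTK1 the libraries headed 4, 5 and 6 were the low ones. TERT was the least counted member, with 470 to 681 counts in HPB-ALL and 90 to 372 in KOPTK1. The log2 difference of HPB-ALL over KOPTK1 was 1.02 (SE 0.24, edgeR adjusted p = 0.0022). It was 1.86 without the libraries headed 1, 2 and 3 and 0.54 without those headed 4, 5 and 6, each called, whereas the test for a minimum change of 1.5-fold did not call it (edgeR adjusted p = 0.0787, with a range of 7.91e-12 to 0.0787 over all fits). A difference as large in size was found in 14.8% of tested genes. Counts were per gene, and the inactive splice forms known for TERT were not separated.

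TERC is both scaffold and template. Its entry in the tables is 1 exon of 541 bases on the minus strand at chr3:169764520-169765060 (hg38), and RefSeq (GRCh38.p14) ends the RNA after 451 bases. The following stretches are shown because the template and the H/ACA elements tie TERC to telomeres and to the SHQ1 pathway, and because the tables count a tail beyond the RefSeq end. They were read from the GENCODE 44 transcript in the set lifted to hg19, written as DNA, with positions counted from its first base. Capitals mark, in the first, the longest match to the complement of the telomere repeat TTAGGG, at bases 46 to 56, and, in the second, the box H match ANANNA at 372 to 377, the CAB box TGAG at 411 to 414 and the ACA at 446 to 448, which lies 3 bases before the RefSeq end.
TERC bases 1 to 100: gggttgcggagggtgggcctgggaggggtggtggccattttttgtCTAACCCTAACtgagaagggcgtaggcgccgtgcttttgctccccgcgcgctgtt
TERC bases 361 to 451: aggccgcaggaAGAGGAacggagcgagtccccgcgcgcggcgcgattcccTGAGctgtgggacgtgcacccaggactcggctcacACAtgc
TERC bases 452 to 541: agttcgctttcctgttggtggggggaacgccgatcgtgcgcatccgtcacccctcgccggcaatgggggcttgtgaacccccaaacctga

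Motifs were searched on the RNA strand only. The template match occurred within the first 100 bases of 3 of 250371 transcripts of at least that length in the same GENCODE set. Of 386 SNORA transcripts, which are H/ACA RNAs, the last 91 bases held ANANNA in 94.6% and TGAG in 33.4%, and 61.1% had ACA at the same distance from the end. Such matches describe the letters and do not define sites.

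A second, unnamed entry of 438 bases lies wholly inside TERC on the same strand, at chr3:169764610-169765047. In every library its count and that of TERC differed by 0 to 5, although each held at least 659.5 counts. The deposited counts contain fractions, and 6 of 12 TERC counts were not whole numbers. How a read that overlaps both entries was counted is not given in the sources used here. TERC is thus uncertain in level, and summing both entries raised the median from 44.2 to 88.3 RPKM in HPB-ALL and from 47.3 to 94.4 RPKM in KOPTK1. On this sum TERC had the highest level of the members in both lines. Since the second entry covers the RNA up to the RefSeq end, the small differences also show that few counts were assigned to TERC alone.

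With the deposited counts, the lowest, median and highest TERC levels were 39.6, 44.2 and 50.3 RPKM in HPB-ALL and 38.4, 47.3 and 53.3 RPKM in KOPTK1. The ranges overlapped almost entirely, the lowest value of all being the KOPTK1 library headed 2 and the highest that headed 6. The log2 difference of HPB-ALL minus KOPTK1 was -0.08 (SE 0.08, edgeR adjusted p = 0.392) and did not pass the test. Without the libraries headed 1, 2 and 3 it was -0.17 and was called (edgeR adjusted p = 0.0367), and without those headed 4, 5 and 6 its sign turned, at 0.04 (edgeR adjusted p = 0.665). Over all fits the adjusted p ranged from 0.0367 to 1.0, so that a call for TERC depended on the KOPTK1 libraries used.

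By the measure of likeness used here, the mean within-line Pearson r of log2 RPKM over 6 libraries per line, the gene most like TERC among 21454 was this second entry, at 1.0, which lies inside it. The next 4 entries lay at SNORA24 (mean r 0.975), H4C12 (0.962), H4C2 (0.96) and SCARNA2 (0.959). SNORA24 is an H/ACA guide RNA, SCARNA2 is a small Cajal body RNA, and H4C12 and H4C2 encode histone H4. SNORA24, H4C2 and SCARNA2 were named by position in RefSeq (GRCh38.p14). The 4 entries are short, with 131 bases at SNORA24, 312 at H4C12, 438 at H4C2 and 420 at SCARNA2. Depth differed between libraries within a line. The parts of length and depth in these values were not tested, and the values are a description with no test. In KOPTK1, TERC also followed the split of libraries. It was at 38.4 to 45.7 RPKM in those headed 1, 2 and 3 and 48.9 to 53.3 RPKM in those headed 4, 5 and 6. The part of this split in the KOPTK1 correlations was not tested.

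WRAP53 binds the CAB box of TERC and carries telomerase to Cajal bodies. Its levels were 8.19, 8.79 and 9.25 RPKM at the lowest, median and highest in HPB-ALL and 5.22, 6.49 and 7.7 RPKM in KOPTK1. HPB-ALL libraries were all higher, and the log2 difference was 0.42 (SE 0.08, edgeR adjusted p = 4.16e-04). It was 0.64 without the libraries headed 1, 2 and 3 and 0.26 without those headed 4, 5 and 6. An unnamed entry on the opposite strand shares 225 bases with its exons, 5.4% of its length, and reads there cannot be assigned where the strand is not recorded.

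PARN removes short A tails from the end of newly made TERC, which protects the RNA from decay. Its level was 31.2 to 33.8 RPKM in HPB-ALL, with a median of 32.8, and 28.7 to 31.3 RPKM in KOPTK1, with a median of 30.7. The RPKM ranges overlapped at their edges, whereas the CPM values scaled by the normalization factors did not overlap. PARN was among the steadiest members, its highest library being 1.08 and 1.09 times its lowest in these lines. Its log2 difference of 0.10 (SE 0.03, edgeR adjusted p = 0.00782) passed the test, although 83.4% of tested genes differed by at least as much. It was 0.15 without the libraries headed 1, 2 and 3 and 0.09 without those headed 4, 5 and 6, both called.

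TERF1 and TERF2 bind double-stranded telomeric DNA, TERF1 as a regulator of telomere length and TERF2 as the protein that hides chromosome ends from the DNA damage response. TERF1 was at 17.1, 17.7 and 18.7 RPKM in HPB-ALL and 20.4, 22.1 and 23.7 RPKM in KOPTK1 at the lowest, median and highest. Here KOPTK1 was higher in every library, with a log2 difference of HPB-ALL minus KOPTK1 of -0.31 (SE 0.04, edgeR adjusted p = 1.6e-05). Leaving out the KOPTK1 libraries headed 1, 2 and 3 gave -0.35, and leaving out those headed 4, 5 and 6 gave -0.25. TERF1 has 7 pseudogenes by name in the tables, with a median summed count of 116.0. Reads shared with them were not measured and could make its value uncertain.

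TERF2 was at 21.7, 22.8 and 23.6 RPKM in HPB-ALL and 20.2, 21.5 and 23.9 RPKM in KOPTK1. The highest TERF2 level of all was the KOPTK1 library headed 1, and the ranges overlapped. TERF2 shares 98 bases, 3.01% of its length, with an entry on the same strand, and 7 of its 12 counts were not whole, so that its value is uncertain to that extent. Its log2 difference of 0.07 (SE 0.04, edgeR adjusted p = 0.107) did not pass the test, but it did without the libraries headed 1, 2 and 3 (0.14, edgeR adjusted p = 0.00186). It also passed without the library headed 1 alone (0.10, edgeR adjusted p = 0.0117), with DESeq2 (0.09, adjusted p = 0.0393) and without the filter on low counts (0.14, edgeR adjusted p = 0.0172), within a range of 0.00186 to 1.0 over all fits. Without the libraries headed 4, 5 and 6 the difference was 0.03 and did not pass.

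TERF2IP, known as RAP1, joins shelterin through TERF2 and represses recombination at telomeres. In HPB-ALL its levels were 49.9, 51.5 and 54.9 RPKM, against 37.1, 41.7 and 44.7 RPKM in KOPTK1. The lines did not overlap, and the log2 difference was 0.35 (SE 0.05, edgeR adjusted p = 6.24e-05). Without the libraries headed 1, 2 and 3 it was 0.47, and without those headed 4, 5 and 6 it was 0.26. Thus TERF2IP was higher in HPB-ALL while its binding partner TERF2 was called in some fits and not in others, and the difference between these genes was not tested.

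TINF2 links the double-strand binders to the ACD and POT1 pair. Its levels of 18.3 to 19.3 RPKM in HPB-ALL, median 18.8, lay below those of 21.9 to 24.6 RPKM in KOPTK1, median 22.7. The log2 difference of HPB-ALL minus KOPTK1 was -0.29 (SE 0.04, edgeR adjusted p = 1.15e-05), and it was -0.30 and -0.25 without the libraries headed 1, 2 and 3 and without those headed 4, 5 and 6. TINF2 was the steadiest member over the HPB-ALL libraries, with a highest value 1.05 times the lowest.

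ACD, also named TPP1, holds POT1 on shelterin and brings telomerase to the chromosome end. It was at 21.0, 21.7 and 22.2 RPKM in HPB-ALL and 16.7, 18.8 and 21.0 RPKM in KOPTK1, where the libraries headed 4, 5 and 6 were the lowest and the ranges of the lines met at 21.0 RPKM. The log2 difference was 0.21 (SE 0.05, edgeR adjusted p = 0.00393). It was 0.35 without the libraries headed 1, 2 and 3 and was 0.10 without those headed 4, 5 and 6 (edgeR adjusted p = 0.0347, within a range of 4.45e-07 to 1.0 over all fits). A stretch of 58 bases is shared with CARMIL2 on the opposite strand, a gene with a median count of 8157.2 in HPB-ALL, so that ACD counts are uncertain to that extent.

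POT1 covers the single-stranded overhang and controls the access of telomerase to it. With all libraries it had the largest difference in size of the 10 members, but without the KOPTK1 libraries headed 1, 2 and 3 that of TERT was larger. In HPB-ALL its lowest, median and highest levels were 4.56, 4.78 and 5.49 RPKM, and in KOPTK1 they were 10.9, 13.5 and 16.2 RPKM. The lines stood far apart in all 12 libraries, and within KOPTK1 those headed 1, 2 and 3 were the lower. The log2 difference of HPB-ALL minus KOPTK1 was -1.45 (SE 0.10, edgeR adjusted p = 8.64e-08), and 8% of tested genes differed by at least as much. It was -1.64 without the libraries headed 1, 2 and 3 and -1.20 without those headed 4, 5 and 6. The POT1 entry has 19 exon blocks on the minus strand at chr7:124822386-124929983 (hg38) and shares 86 bases with POT1-AS1 on the opposite strand, which had median counts of 19.2 in HPB-ALL and 55.8 in KOPTK1.

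At the genes with the largest differences, the KOPTK1 libraries headed 1, 2 and 3 again lay between the lines. On the scale from the libraries headed 4, 5 and 6 (0) to HPB-ALL (1), TERT was placed at 0.651, 0.609 and 0.468 in them. POT1 was placed at 0.447, 0.387 and 0.351.

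**Figure D2:**
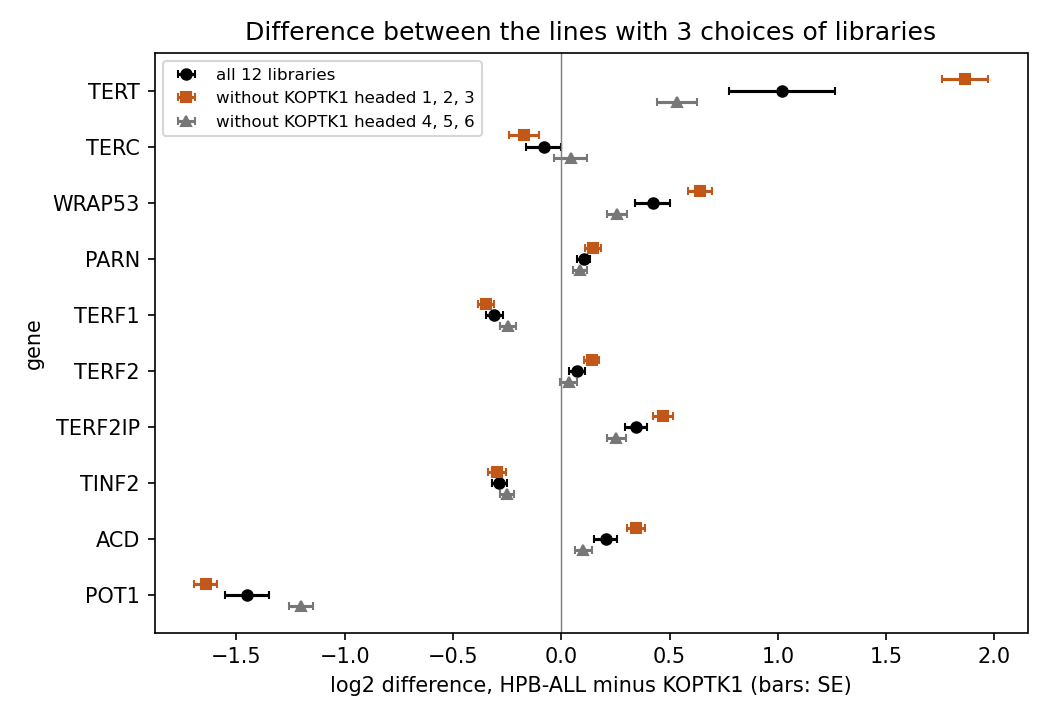
Log2 difference of HPB-ALL minus KOPTK1 for each member with all 12 libraries (circles), without the KOPTK1 libraries headed 1, 2 and 3 (squares) and without those headed 4, 5 and 6 (triangles), bars showing SE. All members keep their sign except TERC, and the difference is widest without the libraries headed 1, 2 and 3.

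SHQ1 itself was higher in HPB-ALL, with a log2 difference of 0.46 (SE 0.12, edgeR adjusted p = 0.00355), over libraries that include those with SHQ1 shRNA. The difference was 0.56 without the libraries headed 1, 2 and 3 and 0.40 without those headed 4, 5 and 6. Since the shRNA of each library is not known, the parts of line and of depletion in this difference cannot be told apart. The SHQ1 ranges in the lines met at 46.4 RPKM, the lowest value in HPB-ALL and the highest in KOPTK1.

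A wider list of 40 genes of telomerase and telomere biology was examined beside the members. With all libraries, 28 of 40 were called, 15 higher and 13 lower in HPB-ALL, against 63.8% of all tested genes. Their median absolute log2 difference was 0.18, below the 0.35 of all tested genes. Without the KOPTK1 libraries headed 1, 2 and 3, 29 of 40 were called, against 68% of tested genes, and without those headed 4, 5 and 6, 24 of 40 were called, against 50.2%.

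Among the 7 genes of the H/ACA core and its assembly, 4 were higher and 1 lower in HPB-ALL, against 30.6% and 33.2% of all tested genes, the shares that apply to each group of genes below. With all libraries the largest difference of the list in this direction was that of RUVBL2, an ATPase needed to assemble these particles, with a log2 difference of 0.67 (SE 0.12) and median levels of 84.1 RPKM in HPB-ALL and 53.4 RPKM in KOPTK1. Without the libraries headed 1, 2 and 3 the RUVBL2 difference was 1.03, and without those headed 4, 5 and 6 it was 0.40, below the 0.44 of PIF1. Of the 9 genes listed for TERC end maturation and decay, 4 were higher, 1 was lower and 4 did not pass the test. PABPN1, a nuclear poly(A)-binding protein that promotes TERC maturation, had the largest of these differences toward HPB-ALL, with a log2 difference of 0.32 (SE 0.05). In the same order of left-out libraries it was 0.44 and 0.24.

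The CST complex, which fills in the strand opposite the overhang, had 1 of 3 genes higher and 1 lower. Of 9 partners of shelterin, 2 were higher and 5 lower. SAMHD1, a dNTP triphosphohydrolase, differed most in size, with a log2 difference of -2.0 (SE 0.21), but at medians of only 0.0911 RPKM in HPB-ALL and 0.413 RPKM in KOPTK1, the lowest levels of the list. Among 8 further telomerase and telomere associated genes, 3 were higher and 2 lower. PIF1, a helicase that removes telomerase from DNA, had a log2 difference of 0.44 (SE 0.07), and HMBOX1, a telomere-binding homeobox protein, one of -0.50 (SE 0.05). HSP90AA1, a chaperone of telomerase, had the highest level of the list, with medians of 380.5 and 368.8 RPKM. Its log2 difference of 0.04 (SE 0.03) did not pass the test, nor did 0.04 and 0.06 with the same libraries left out in turn, but it was called without the filter on low counts, at 0.10. The genes related to alternative lengthening of telomeres were called in 4 of 4 cases, 1 higher and 3 lower, where 63.8% of all tested genes were called, 30.6% higher and 33.2% lower, and ZNF827 had the largest difference at -0.47 (SE 0.06). Without the libraries headed 1, 2 and 3, SAMHD1 was at -2.21, PIF1 at 0.48, HMBOX1 at -0.57 and ZNF827 at -0.52 on the log2 scale. Without those headed 4, 5 and 6 they were at -1.75, 0.44, -0.39 and -0.38, so that each kept its direction.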

How the data were processed

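RNA-Seq was performed on rRNA-depleted total RNA of T-ALL lines with a library kit stated to be TruSeq RNA v2, which does not mark strand. The submitters' processing notes name Trimmomatic 0.36, STAR 2.5.4b, Picard 2.18.7, featureCounts 1.6.2, edgeR 3.22.3 and the build hg38, whereas the published methods name hg19 and Bowtie 2; the coordinates used are those in the tables. Although named for RPKM, the tables hold estimated counts deposited by the authors, in part fractional, and not normalized. Their logFC, logCPM, F, PValue and FDR columns hold the authors' comparison and average level and were not used.

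Counts of both tables were joined by gene, rounded, and fitted with edgeR 4.0.16 in R 4.3.3 (TMM, filterByExpr by line, quasi-likelihood test, Benjamini-Hochberg adjustment over all genes tested). The SE was derived from the log2 difference and its F statistic. RPKM was computed from the deposited counts, the Length column and the library total. Levels of genes are compared as RPKM only. Symbols came from GENCODE identifiers. PINX1 has a second identifier, annotated as a readthrough gene, which was left out. No pair of libraries of a line agreed within sampling noise, the lowest chi-square per gene being 1.78. Alternatives were DESeq2 1.42.0, no filter, a minimum change of 1.5-fold, each library left out, and other scales for levels. Since the library headers match no shRNA label, the planned comparisons of shRNAs were not made.

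The genes named are the members, SHQ1, and of 40 other listed genes those highest and lowest in level and the 3 with the largest difference in each direction; for TERC, the 5 genes most alike with a mean of at least 1 RPKM in each line (log2 of RPKM + 0.1). Markers of T lineage, B lineage, myeloid and fibroblast or packaging cells and an oncogene of each line were listed likewise. Members and lists were chosen with earlier results of these data known.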

Additional observations from a re-analysis of the deposited data

How the results depend on the processing

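Alternatives were computed for the comparison of the lines and for levels. No paired analysis was possible because the library headers carry no replicate number. Other settings for SHQ1 shRNA against control (DESeq2, no filter, replicate block, left-out replicates, pseudocount) were not run, since that comparison could not be made.

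With a minimum change of 1.5-fold, 4253 genes (15.3% of those tested) were called, 1278 higher and 2975 lower in HPB-ALL (30% higher, against 48% with no minimum), with 1 member, POT1, and 1 other listed gene, SAMHD1; a stricter null hypothesis calls fewer genes by construction. Leaving out each library in turn gave 16878 to 18345 calls, 59.9% to 65.2% of tested genes, with 8 to 9 members and 25 to 30 other listed genes. DESeq2 called 17756 of 27815 genes (63.8%) and the unfiltered fit 19484 of 48405 (40.3%), each with 9 members and 29 other listed genes.

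TERC turned sign without the KOPTK1 libraries headed 4, 5 and 6 (0.0436); the cause was not tested. Each of the other members kept its sign in every fit. In levels, summing TERC with the entry inside it, an alternative added after seeing the data, moved the ratio of the highest to the lowest member from 14.4 to 24.8 in HPB-ALL and from 29.0 to 58.0 in KOPTK1. Leaving out each library gave ratios of 13.1 to 16.0 in HPB-ALL and 20.9 to 45.6 in KOPTK1. With the RefSeq length, the TERC median was 53.0 RPKM in HPB-ALL and 56.7 in KOPTK1. Among the members, depth limits TERT most, at 90 counts in the KOPTK1 library headed 6.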

Other observations

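Values of SHQ1 in the single libraries, whose shRNA is not known, were as follows. In the HPB-ALL table SHQ1 was at 70.3, 71.8 and 70.9 RPKM in the libraries headed 7, 8 and 9, and at 47.6, 46.4 and 49.1 RPKM in those headed 10, 11 and 12, in separate sets. In the KOPTK1 table it was at 45.7, 44.1 and 46.4 RPKM in the libraries headed 1, 2 and 3, and at 41.9, 41.8 and 39.3 RPKM in those headed 4, 5 and 6, a much smaller step.

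In the HPB-ALL table TERC was at 39.6, 50.3 and 39.8 RPKM in the libraries headed 7, 8 and 9, and at 42.6, 45.8 and 46.8 RPKM in those headed 10, 11 and 12, the lowest and the highest both among those headed 7, 8 and 9. In KOPTK1 TERC was at 45.7, 38.4 and 45.1 RPKM in the libraries headed 1, 2 and 3, and at 48.9, 49.3 and 53.3 RPKM in those headed 4, 5 and 6.

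TERT in KOPTK1 had 372, 348 and 318 counts in the libraries headed 1, 2 and 3 and 112, 96 and 90 in those headed 4, 5 and 6. POT1 was at 10.9, 11.5 and 11.9 RPKM in the former and 15.1, 15.7 and 16.2 RPKM in the latter. Total counts were 34759805, 33905452 and 36098045 in the former and 25938761, 25884669 and 22884785 in the latter, so that depth moves with this split.

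Of 22 sets of 6 libraries, the 10 members and SHQ1 in each line, 0 had a single library far from the others by Dixon's ratio. That ratio cannot show a split of libraries into separate sets, such as those of SHQ1 in HPB-ALL and TERT in KOPTK1. Marker genes were not screened.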
